A study of Mus musculus with 2 samples.

Results

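Trunk cells with low Neurog3 are epithelial cells of the embryonic pancreas that carry the transcripts of the branching duct-like trunk together with 1 or 2 molecules of Neurog3, the factor that sets off endocrine differentiation. They were followed here in single-cell RNA sequencing of mouse pancreata at E15.5. One library came from Mettl3pKO embryos, in which Pdx1+ progenitors of the pancreas lack Mettl3, the enzyme subunit that writes N6-methyladenosine on RNA, and 1 from WT embryos. The sources used here state neither the driver of the deletion nor how many embryos were pooled. Members were picked by their unique molecular identifiers (UMIs, 1 per captured transcript), given per 10000 UMIs of the cell where so stated. A member had 1 or 2 Neurog3 UMIs, at least 5 Spp1 UMIs per 10000, at least 1 Epcam UMI and fewer than 3 Fev UMIs. It also stayed under 100 Ctrb1, 200 Gcg, 200 summed Ins1 and Ins2, 50 Sst and 20 summed Col1a1 and Col3a1 UMIs per 10000. The rule found 111 of 10008 cells, of which 6 were in Mettl3pKO and 105 in WT. The cells that met every condition but had no Neurog3 UMI, 370 in Mettl3pKO and 1085 in WT, are what they were set against.

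In the developing pancreas, the trunk is the inner part of the epithelial tree, and its Sox9-positive cells become either duct or, after switching on Neurog3, endocrine cells. Notch signalling, through the repressor Hes1, holds Neurog3 down in most trunk cells, and a cell that passes to high Neurog3 leaves the cell cycle and switches on Insm1, Neurod1 and Pax4. Cells with little Neurog3 stand, by that level alone, between these states.

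The Mettl3pKO library held 3624 complete cells with a median of 16481 UMIs, and the WT library 6384 with a median of 10824. The libraries shared 33 cell barcodes, 2 of them in WT members. Within WT the groups were alike in depth, with a median of 10382 UMIs in low-Neurog3 and 10362 in no-Neurog3 trunk cells, and in the median share of mitochondrial UMIs, 8.61% and 8.69%. Doublets were kept. A doublet caller marked 3 of the 105 low-Neurog3 and 13 of the 1085 no-Neurog3 cells of WT. With 1 library per genotype there is no replicate, so no test was made; every 95% interval below covers counting error only and not the spread between cells or embryos. The targeted gene, Mettl3, had 0 UMIs in the Mettl3pKO members, which allows up to 29.2 counts per 1000000 UMIs of the group (CPM), and 12.4 CPM in no-Neurog3 trunk cells of Mettl3pKO. In WT it stood at 14.2 CPM in low-Neurog3 and 17.5 CPM in no-Neurog3 trunk cells. Which exons were deleted is not stated in the sources used here, so these counts do not check the deletion.

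The genes of the rule describe the members and are no findings. Of the 105 WT members 75 had 1 Neurog3 UMI and 30 had 2, and of the 6 in Mettl3pKO 5 had 1 and 1 had 2. Just past the upper limit, 10 WT trunk cells had 3 Neurog3 UMIs and 10 had 4, and in all 149 had 3 or more. Spp1, a secreted phosphoprotein that marks trunk and duct, ran from 10.6 over a median of 32.1 to 69.03 UMIs per 10000 in WT members, against 5.01, 31.4 and 97.5 in no-Neurog3 cells. The highest Spp1 value among the 14 WT cells with 1 or 2 Neurog3 UMIs that failed this condition alone was 1.28 per 10000, so none of the low-Neurog3 cells of WT stood close to that limit. In Mettl3pKO the lowest member had 5.87 per 10000, close to the limit of 5. Sox9, which the rule did not use, had a UMI in 98.1% of low-Neurog3 and 98.2% of no-Neurog3 cells of WT, with medians of 7.91 and 7.53 UMIs per 10000. Of the trunk markers only Sox9 is independent of the rule, and by it the label trunk holds for the WT members. Neurog3 itself (plus strand of chromosome 10 at 62133090-62134763, mm10) summed to 135 UMIs over them.

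Low-Neurog3 cells made up a smaller part of the Mettl3pKO trunk. They were 6 of 385 trunk cells of Mettl3pKO (1.56%, exact interval 0.574 to 3.36%) and 105 of 1339 in WT (7.84%, 6.46 to 9.41%), so that the share was 5.03 times higher in WT (2.24 to 14.02). The libraries differed in their mix of embryos. Of the no-Neurog3 trunk cells, 241 in Mettl3pKO and 397 in WT had Y-linked and no Xist UMIs (male cells), and 57 and 499 the reverse (female cells). Among male trunk cells 2 of 248 in Mettl3pKO and 39 of 493 in WT had low Neurog3, a ratio of 0.102, and among female ones 2 of 62 and 54 of 624, a ratio of 0.373. For comparison, trunk cells past the upper limit numbered 9 of 385 in Mettl3pKO (2.34%) and 149 of 1339 in WT (11.1%), 4.76 times higher in WT (2.44 to 10.6). The intervals of both gaps overlap widely, and the difference between them was not tested. Because the Mettl3pKO cells were deeper, each cell was also thinned to 6000 UMIs at random and the rule applied again, which gave 4 of 381 cells in Mettl3pKO (1.05%) and 89 of 1341 in WT (6.64%). Among cells with at least 13000 UMIs the shares were 4 of 301 (1.33%) and 29 of 342 (8.48%).

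A single Neurog3 UMI can also come from free RNA, so the same count was made in cells that should lack the gene. After thinning to 6000 UMIs, 88 of 1339 WT trunk cells as classed before thinning had 1 or 2 Neurog3 UMIs (6.57%, 5.30 to 8.04%). Among WT acinar cells, with at least 100 Ctrb1 UMIs per 10000, it was 35 of 1977 (1.77%, 1.24 to 2.45%). In WT mesenchyme, with at least 50 collagen UMIs per 10000 and no Epcam, it was 21 of 1316 (1.60%, 0.990 to 2.43%). The WT trunk share therefore stood above that of both other classes, with intervals that do not meet, and a share of the size seen there may be free RNA in the trunk too. In Mettl3pKO the shares were 4 of 385 trunk cells (1.04%, 0.284 to 2.64%), 5 of 1750 acinar cells (0.286%) and 0 of 291 mesenchyme cells, which allows up to 1.03%. There the trunk interval reaches the level allowed in mesenchyme, so that the Mettl3pKO members were not told apart from such background. Median depths before thinning were 14810, 17936 and 13378 UMIs in these Mettl3pKO classes, and 10382, 13207 and 8958 in the WT ones.

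**Figure D1:**
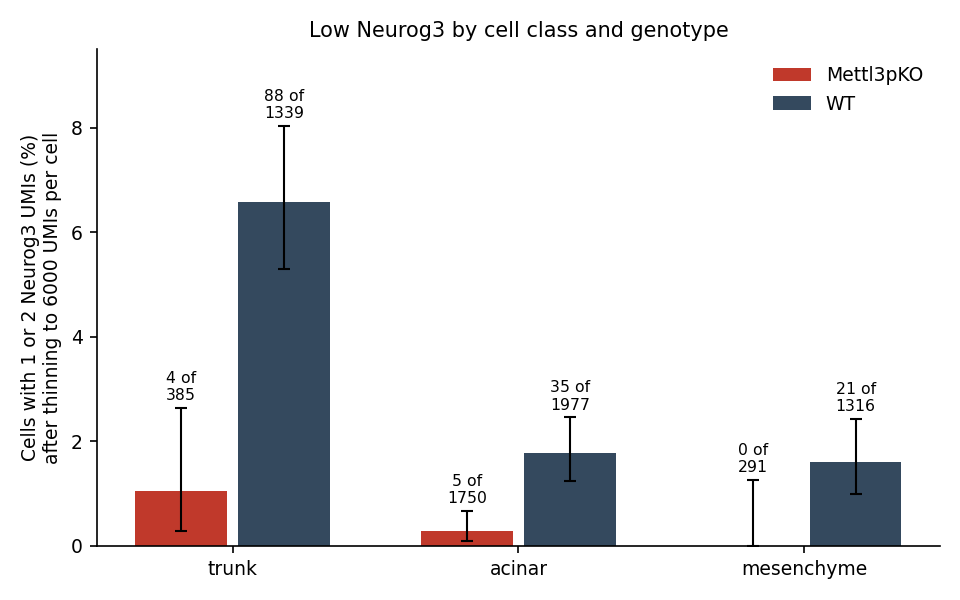
Share of cells with 1 or 2 Neurog3 UMIs after thinning each cell to 6000 UMIs (vertical axis, percent) in trunk, acinar and mesenchyme cells of Mettl3pKO and WT, with exact 95% intervals of counting error and the number of cells. The WT trunk bar, at 6.57%, stands above the other 5, which lie between 0 and 1.77%.

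Within WT, low-Neurog3 trunk cells differed from no-Neurog3 ones in few genes. Of 3863 genes with a mean of at least 50 CPM over both groups, the rule genes left out, 30 were at least 1.5-fold higher (0.777%) and 19 at least 1.5-fold lower (0.492%), and the median log2 ratio was 0.02. Trunk cells with 3 or more Neurog3 UMIs, set against the same no-Neurog3 cells, had 373 of 3955 genes higher (9.43%) and 232 lower (5.87%). These comparisons share their no-Neurog3 cells, and the second stands here only as a scale for the first. The low-Neurog3 and no-Neurog3 groups are told apart by 1 or 2 captured UMIs, and a count of 0 does not show that a cell lacks Neurog3. Grouped by thinned UMIs, 89 cells had low Neurog3 and 1120 none. How far a mixing of the groups lowers the number of genes past 1.5-fold was not tested. Leaving out, for each gene, the cell richest in it in each group gave 16 higher and 36 lower genes. Other settings are given in the closing section.

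The genes that stood furthest above no-Neurog3 cells, ranked by the interval bound nearest 1, included genes of cell junctions, transport and secretion. Cldn2, a claudin of tight junctions that lets cations and water pass, was at 137 CPM in low-Neurog3 and 53.1 CPM in no-Neurog3 cells, 2.58 times higher (2.17 to 3.06). Slc2a2, the glucose transporter GLUT2, was at 148 and 75.3 CPM, 1.97 times higher (1.67 to 2.30). Enpp2, autotaxin, which makes lysophosphatidic acid, was at 184 and 94.9 CPM, 1.94 times higher (1.68 to 2.24). All 3 were seen in more cells and not only at a higher level in a few. After thinning, an Enpp2 UMI was found in 50.5% of low-Neurog3 and 30.3% of no-Neurog3 cells, one of Slc2a2 in 45.7% and 25.8%, and one of Cldn2 in 29.5% and 17.9%.

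Among the 15 highest were also signalling and metabolic genes. Cxcl12, a chemokine, was at 542 CPM in low-Neurog3 and 347 CPM in no-Neurog3 cells (1.57 times, 1.44 to 1.70). Fgfr3, a fibroblast growth factor receptor, was at 194 and 123 CPM (1.58 times, 1.38 to 1.81), and the kinesin Kif21a at 173 and 113 CPM (1.54 times, 1.33 to 1.78). Sod3, the extracellular superoxide dismutase, stood at 1.59 times, Txnip, the thioredoxin-binding arrestin, at 1.40 times, and the basement membrane protein Tinagl1 at 1.39 times no-Neurog3 cells. Ttr, the thyroxine carrier transthyretin, was at 564 and 377 CPM. Cdkn1a, the cell cycle inhibitor p21, was at 117 and 71.0 CPM (1.64 times, 1.37 to 1.96). Male and female cells were also compared apart. All 8 of these genes were higher in low-Neurog3 cells of either sex, and so were Cldn2, Slc2a2 and Enpp2. Both sexes were among the cells used for the ranking, so this is no separate check.

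For the other 4 of the 15 the sums rested in part on few cells. Of the 167 Car2 UMIs in low-Neurog3 cells 123 lay in 1 cell, of the 317 Cpox UMIs 130, and of the 163 Hist1h1c UMIs 51. Without the cell richest in the gene in each group, Car2, carbonic anhydrase 2, stood at 0.777 times and Cpox, an enzyme of heme synthesis, at 0.919 times no-Neurog3 cells. Hist1h1c, a linker histone, stood at 1.37 times without those cells, but at 0.881 times in the female cells. Hist1h2bc stood at 1.49 times without them. No direction is therefore given for Car2, Cpox and Hist1h1c.

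**Figure D2:**
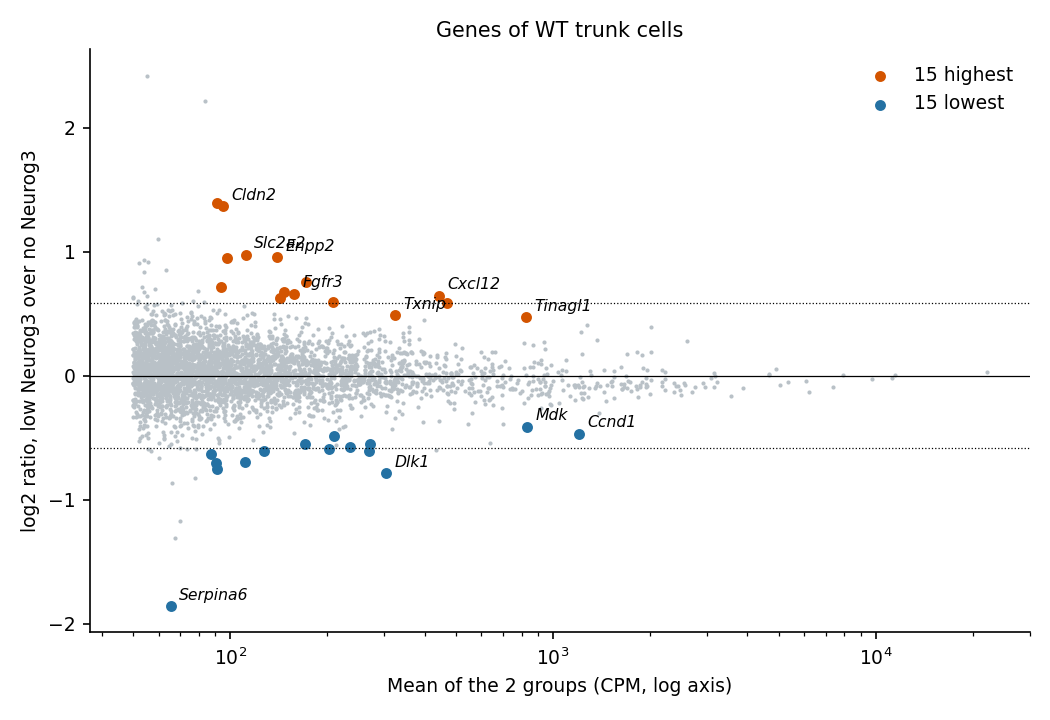
Log2 ratio of low-Neurog3 over no-Neurog3 trunk cells of WT (vertical axis) against the mean CPM of both groups (horizontal log axis) for the 3863 genes measured, with the 15 genes named as highest in orange and as lowest in blue. Dotted lines mark 1.5-fold; most genes lie within them, while Cldn2 stands at 1.37 and Serpina6 at -1.84.

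Little of the endocrine programme was present, and Insm1 stood out by its ratio. Insm1, a zinc finger factor that acts below Neurog3 (plus strand of chromosome 2 at 146221921-146225020, mm10), had 41 UMIs in low-Neurog3 and 70 in no-Neurog3 cells. That is 32.3 CPM (23.2 to 43.8) against 5.60 CPM (4.37 to 7.07), 5.77 times higher (3.83 to 8.60). An Insm1 UMI was found in 21 of 105 low-Neurog3 cells (20%) and 36 of 1085 no-Neurog3 cells (3.32%), or in 14.3% and 2.30% after thinning. No single cell held more than 6 of the 41 UMIs, and the gene was higher in low-Neurog3 cells in all 17 alternative settings tried for single genes. Those settings reuse the same cells, so here and below their agreement is no separate check. By Neurog3 count, Insm1 stood at 24.4 CPM with 1 UMI, 55.2 CPM with 2, 22.7 CPM (11.7 to 39.6) with 3 to 9 and 804 CPM (757 to 853) with 10 or more. Its level in low-Neurog3 cells was thus far below that of cells with 10 or more, and not below that of cells with 3 to 9.

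A few other factors of the programme were higher too, at low levels. Rcor2, a corepressor subunit, was at 28.4 CPM in low-Neurog3 and 16.4 CPM in no-Neurog3 cells (1.73 times, 1.18 to 2.47). Etv1, an ETS factor, was at 7.88 and 2.00 CPM, from 10 and 25 UMIs (3.94 times, 1.69 to 8.50). Both were higher in all 17 settings. Isl1, a LIM homeobox factor of islet cells, had 29 UMIs in low-Neurog3 cells, 17 of them in 1 cell. Its ratio was 3.17, but 1.70 (0.839 to 3.16) without the richest cells, and the female low-Neurog3 cells had none. Nkx2-2, an islet homeobox factor, was at 71.7 and 58.9 CPM (1.22 times, 0.969 to 1.52), and Cbfa2t3, another corepressor, at 15.8 and 10.4 CPM (1.52 times, 0.896 to 2.44). Both intervals hold 1. Neurod1, a direct target of Neurog3, was 4.93 times higher by its sum, but 13 of its 18 UMIs lay in 1 cell, the ratio without the richest cells was 1.66, and it was lower in the female cells. Pax4, a factor of the beta and delta lineages, had 1 UMI in the 105 cells. In cells with 10 or more Neurog3 UMIs the levels were 187 CPM (Rcor2), 445 CPM (Nkx2-2), 693 CPM (Cbfa2t3), 101 CPM (Neurod1) and 124 CPM (Pax4). Etv1 was not higher there, at 2.19 CPM (0.45 to 6.41) beside 2.00 CPM in no-Neurog3 cells. Isl1 was at 27.8 CPM there and 22.9 CPM in low-Neurog3 cells. Of the 30 factors on the list of endocrine transcription factors, 3 were measured at 50 CPM, and 0 of them passed 1.5-fold; their median log2 ratio was 0.15, beside 0.02 for all genes.

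Secretory and hormone transcripts showed the same concentration in few cells. Chga, chromogranin A of secretory granules, was at 38.6 CPM in low-Neurog3 and 14.2 CPM in no-Neurog3 cells, and 2.22 times higher without the richest cells. Rbp4, the retinol carrier, had 80 of its 118 UMIs in 1 cell and was lower in the female cells, and Pcsk1, a prohormone convertase, 6 of 8. Of 35 early endocrine and secretory genes, 4 were measured at 50 CPM; 1 was higher (Rbp4) and 0 lower. Of the 8 islet hormones 4 belong to the rule. Of the others Ppy, pancreatic polypeptide, had 17 of its 20 UMIs in 1 low-Neurog3 cell, so that its sum describes mostly that cell. Pyy, peptide YY, had 88 of its 175 UMIs in 1 low-Neurog3 cell. Pyy was 3.27 times higher without the richest cells, and 9.36 times higher in the male but 1.24 times (0.654 to 2.20) in the female cells. A UMI of it was found after thinning in 14.3% of low-Neurog3 and 8.02% of no-Neurog3 cells. How far free RNA or doublets give these transcripts was not tested.

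Most of the trunk factors measured stood near their level in no-Neurog3 cells. Sox9, the factor that maintains trunk progenitors, stood at 929 CPM in low-Neurog3 and 866 CPM in no-Neurog3 cells (1.07 times, 1.01 to 1.14). Nkx6-1 and Pdx1, factors of the early pancreatic epithelium, stood at 0.960 and 0.918 times no-Neurog3 cells, each with an interval that holds 1. Of 29 trunk and progenitor factors 17 were measured and 0 passed 1.5-fold either way (median log2 ratio 0.07). The members farthest from 1 were rare transcripts below 50 CPM. Gata4, a zinc finger factor of the early pancreas, had 9 UMIs in low-Neurog3 cells and stood at 0.479 times (0.216 to 0.930). Id3, an inhibitor of basic helix-loop-helix factors, had 17 UMIs and stood at 0.553 times (0.318 to 0.900). Both were lower in all 17 settings. Foxa3, with 4 UMIs, stood at 0.386 times (0.103 to 1.02). With 10 or more Neurog3 UMIs Sox9 stood at 593 CPM (552 to 635).

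Hes1, the Notch-induced repressor of Neurog3, was likewise present in low-Neurog3 cells at 1306 CPM, against 1160 CPM in no-Neurog3 cells (1.13 times, 1.07 to 1.19), and at 1036 CPM in cells with 10 or more Neurog3 UMIs. A Hes1 UMI was found after thinning in 92.4% of low-Neurog3 and 90.7% of no-Neurog3 cells. Dll1, the Notch ligand shown by endocrine progenitors, had 2 UMIs in the 105 cells and stood at 1.58 CPM (0.191 to 5.69), against 2.40 CPM in no-Neurog3 cells and 133 CPM (114 to 154) with 10 or more Neurog3 UMIs. Hes6, a Hes protein of the endocrine lineage, was at 39.4 and 40.5 CPM. Jag2, a further ligand, had 12 UMIs in low-Neurog3 cells and a ratio of 1.44 (0.716 to 2.66). Of 33 Notch pathway genes 12 were measured; 1 passed 1.5-fold, the noncanonical ligand Dlk1, which was lower (median 0.07).

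Duct genes leaned upward. Of 35 on the list 29 were measured, 2 were at least 1.5-fold higher (Car2 and Fgfr3), beside 0.777% of all genes, and 0 lower. Without the richest cells Car2 was not higher, which leaves 1. The list had a median log2 ratio of 0.21 beside 0.02 for all genes, and the median was above 0 in all 20 alternatives tried for lists. These alternatives reuse the same cells too. Beside Tinagl1 and Fgfr3, the water channel Aqp1 stood at 1.36 times no-Neurog3 cells, Krt7 and the cilium protein Pkhd1 at 1.35 times each, and Dcdc2a at 1.26 times (1.13 to 1.39). Other members did not rise. Krt8 stood at 0.974 times, Cldn3 at 1.00 times, Krt19 at 1.02 times and Cldn7 at 0.873 times (0.774 to 0.981). The chloride channel Cftr, with 8 UMIs in low-Neurog3 cells, stood at 1.97 times (0.797 to 4.27). In cells with 3 or more Neurog3 UMIs the median of the same 29 genes was -0.00, with 5 of them at least 1.5-fold higher and 1 lower. The difference between these medians was not tested.

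The named genes did not all keep moving in 1 direction as Neurog3 went up. Cldn2 stood at 53.1 CPM with 0 Neurog3 UMIs, 96.5 with 1, 254 with 2, 217 with 3 to 9 and 91.4 (76.1 to 109) with 10 or more. Slc2a2 stood at 75.3, 135, 187, 159 and 81.9 CPM over the same classes. Enpp2 ran through 94.9, 169, 230, 299 and 203 CPM, Fgfr3 through 123, 177, 242, 285 and 200 CPM, and Cxcl12 through 347, 510, 635, 754 and 557 CPM. Of the 15 highest genes, 8 had their highest level with 2 or with 3 to 9 Neurog3 UMIs, and all 8 were lower with 10 or more than with 3 to 9 (the other 3 being Kif21a, Sod3 and Tinagl1). Cdkn1a, Ttr and Txnip were highest with 10 or more, where Cdkn1a reached 682 CPM after 71.0, 91.2, 190 and 336 CPM in the classes below. The classes with 2 and with 3 to 9 Neurog3 UMIs hold 30 and 44 cells.

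**Figure D3:**
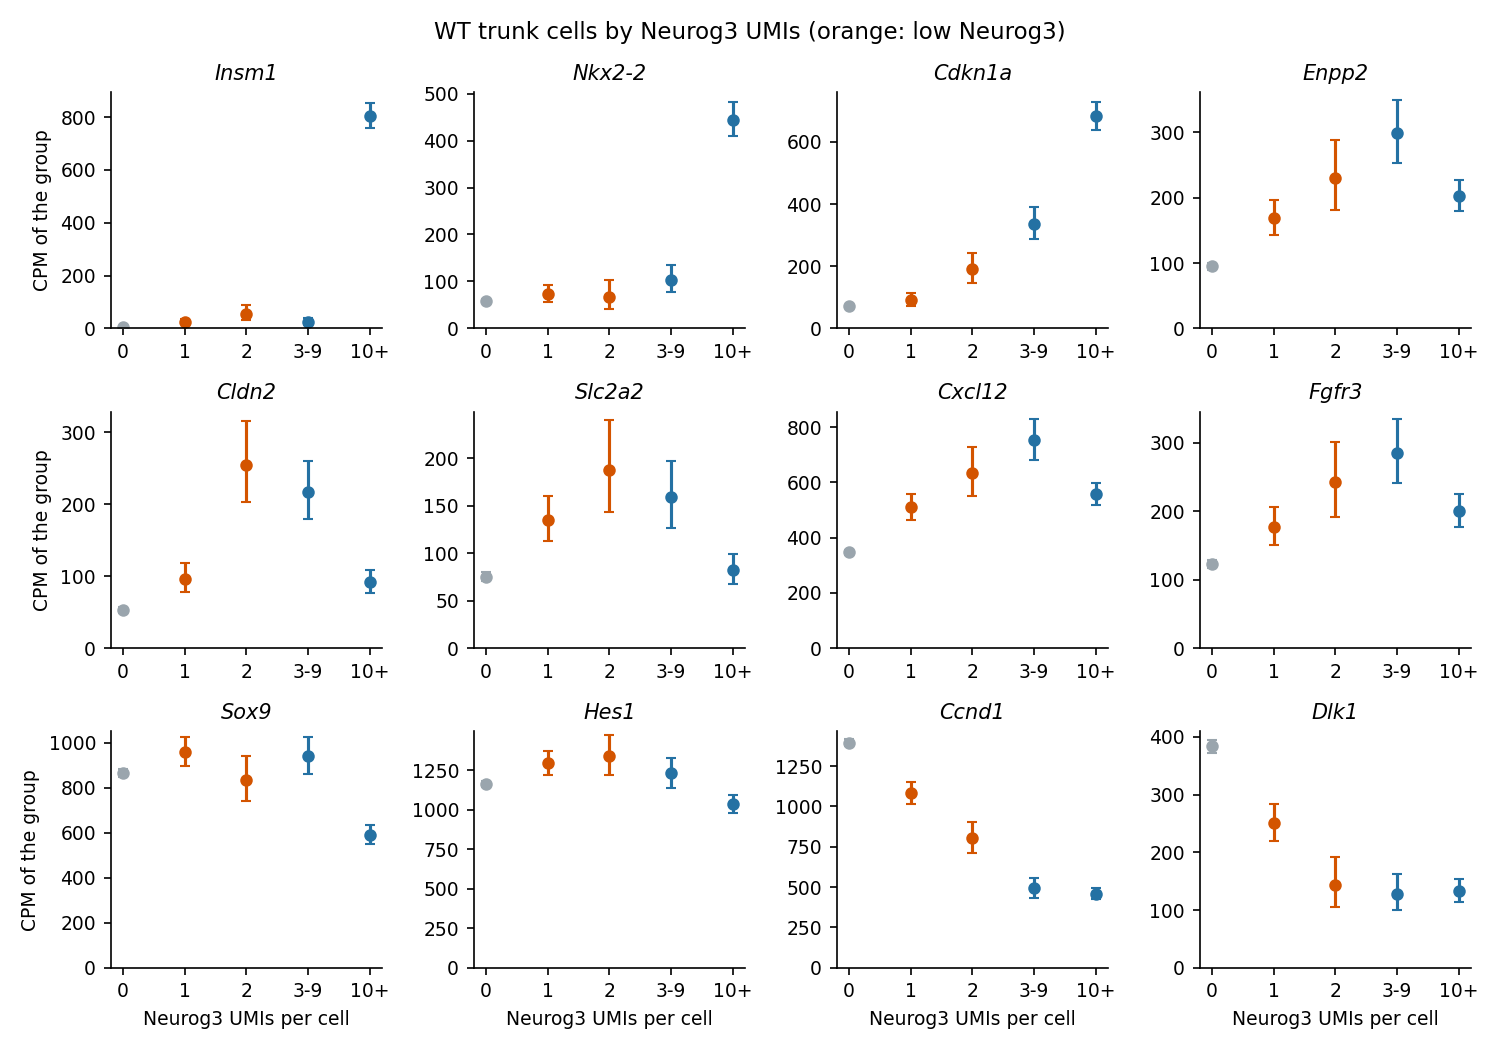
Level of 12 genes (vertical axes, CPM of the group) in WT trunk cells with 0, 1, 2, 3 to 9 and 10 or more Neurog3 UMIs (horizontal axes), with exact 95% intervals of counting error; low-Neurog3 cells are in orange. Cldn2, Slc2a2, Enpp2, Cxcl12 and Fgfr3 are highest at 2 or at 3 to 9, Insm1 and Nkx2-2 are highest at 10 or more, and Ccnd1 is lowest there at 459 CPM.

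A smaller share of low-Neurog3 cells showed transcripts of division, though counting error allows equal shares. A cell was called cycling with at least 2 UMIs over 9 genes of G2 and mitosis (Aurkb, Birc5, Ccnb1, Cdk1, Cenpf, Mki67, Top2a, Tpx2 and Ube2c) after thinning to 6000 UMIs. By this, 40 of 105 low-Neurog3 cells of WT were cycling (38.1%, 28.8 to 48.1%) and 527 of 1085 no-Neurog3 cells (48.6%, 45.6 to 51.6%). The ratio of the shares was 0.784 (0.554 to 1.08), an interval that holds 1. Over the classes the share was 48.6% with 0, 41.3% with 1, 30.0% with 2, 34.1% with 3 to 9 and 20% (12.8 to 28.9%) with 10 or more Neurog3 UMIs. The ratio was 0.522 in the male cells (0.246 to 0.981) and 0.951 in the female cells, a difference that was not tested. Part of such calls can come from free RNA, which was not tested.

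**Figure D4:**
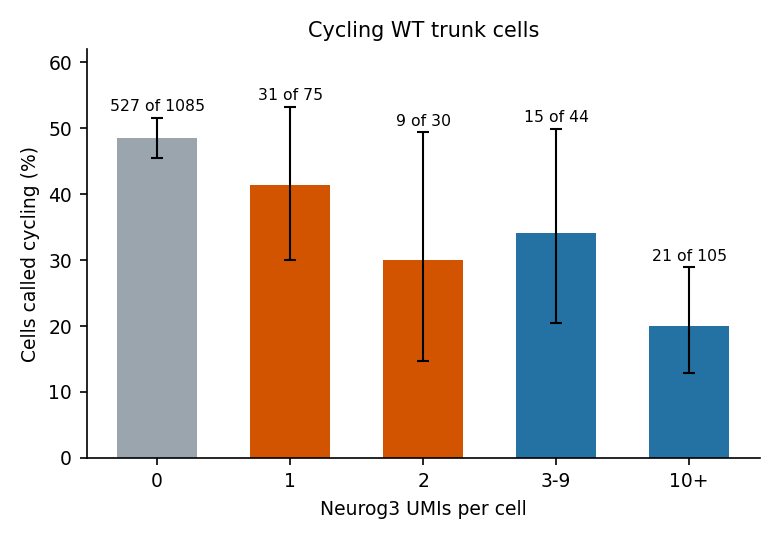
Share of WT trunk cells called cycling (vertical axis, percent) with 0, 1, 2, 3 to 9 and 10 or more Neurog3 UMIs (horizontal axis), with exact 95% intervals of counting error and cell numbers. The share is 48.6% at 0 and 20% at 10 or more; the low-Neurog3 bars, in orange, lie between at 41.3% and 30.0%.

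Levels of most cycle genes leaned lower. Of 35 measured G2M genes 3 were at least 1.5-fold lower and 0 higher (median log2 ratio -0.28), and of 25 measured S phase genes 2 were lower and 0 higher (median -0.20), beside 0.492% lower among all genes. The 3 were Ube2c, a ubiquitin-conjugating enzyme of mitosis, at 214 CPM in low-Neurog3 and 325 CPM in no-Neurog3 cells (0.656 times, 0.578 to 0.742), Cdca8 (0.613 times) and Ccnb1, cyclin B1 (0.645 times). The 2 S phase genes were Hells (0.659 times) and Dtl (0.660 times). Birc5 stood at 0.683 times and the replication clamp partner Pclaf at 0.670 times. Below the 50 CPM of the count, the mitotic kinase Aurka stood at 0.599 times and the S phase cyclin Ccne1, with 13 UMIs, at 0.531 times. Dscc1, also below it, had 10 UMIs and stood at 0.538 times (0.254 to 1.01), an interval that holds 1. Mki67 went the other way, at 1.15 times (1.03 to 1.28). Among cells not called cycling, which by that call have few such UMIs, Ube2c and Cdca8 were higher in low-Neurog3 cells, at log2 ratios of 0.63 and 0.24. In cells with 3 or more Neurog3 UMIs 33 of the same 35 G2M genes were at least 1.5-fold lower, beside 289 of the 3863 genes in all (7.48%).

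Ccnd1, cyclin D1, which carries growth signals into the cycle, was at 1009 CPM (955 to 1066) in low-Neurog3 and 1395 CPM (1374 to 1415) in no-Neurog3 cells, 0.724 times. It stood at 1081 CPM with 1, 803 CPM with 2, 493 CPM with 3 to 9 and 459 CPM with 10 or more Neurog3 UMIs. Among cells not called cycling it was still lower in low-Neurog3 cells, at a log2 ratio of -0.38. Of 11 measured genes of cell cycle exit 1 was higher, Cdkn1a, and 0 were lower. Btg2, an antiproliferative factor, stood at 1.37 times (1.25 to 1.49), Gadd45g at 1.74 times (1.18 to 2.49) and Rb1 at 1.75 times with 24 UMIs, though Rb1 was lower in the female cells.

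Dlk1 and a few targets of FGF signalling were lower. Dlk1 was at 223 CPM (198 to 251) in low-Neurog3 and 384 CPM (373 to 395) in no-Neurog3 cells, 0.581 times, and stood at 250 CPM with 1, 144 CPM with 2 and 132 CPM with 10 or more Neurog3 UMIs. Etv5 and Etv4, factors induced by FGF and ERK signalling, were at 27.6 and 7.09 CPM in low-Neurog3 cells, against 53.3 and 17.4 CPM in no-Neurog3 cells (0.518 times, 0.358 to 0.727, and 0.409 times, 0.184 to 0.790). The ERK inhibitor Spry2 stood at 0.726 times (0.556 to 0.932). The other members of the list did not follow. Of 12 measured FGF and ERK genes 1 was higher (Fgfr3) and 0 lower (median 0.02), and neither Etv gene reached the 50 CPM of the count.

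The rest of the 15 lowest genes had mixed roles. Psat1, of serine synthesis, stood at 0.665 times, Pgk1, of glycolysis, at 0.681 times, the growth factor midkine, Mdk, at 0.753 times, Reep5 at 0.713 times, Fam60a at 0.655 times, the interferon-induced membrane protein Ifitm3 at 0.595 times and the matrix protein Spon1 at 0.619 times no-Neurog3 cells. All 15 lowest genes were also lower without the cell richest in each, in the male cells and in the female cells. The genes were ranked on these same cells, so this is no separate check. Leaving out the richest cells also moved the median log2 ratio of all genes from 0.02 to -0.02. For 13 of the 15 the no-Neurog3 class held the highest level of the 5 Neurog3 classes. Mdk and Fam60a were highest with 10 or more.

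Acinar transcripts were lower in low-Neurog3 cells. Of 7 measured acinar genes 3 were at least 1.5-fold lower and 0 higher (median log2 ratio -0.56). Among them were Serpina6, a corticosteroid carrier, and the pancreatic lipase cofactor Clps, the second at 0.659 times. Serpina6 was at 28.4 CPM in low-Neurog3 and 103 CPM in no-Neurog3 cells (0.276 times). One no-Neurog3 cell held 219 of the 1284 UMIs there, and in the male cells the ratio was 0.865. Rbpjl and Ptf1a, which drive the acinar programme, had 13 and 2 UMIs in low-Neurog3 cells and stood at 0.309 times (0.163 to 0.535) and 0.216 times (0.0258 to 0.805), Ptf1a being higher in the male cells. The nuclear receptor Nr5a2 and the enzymes Cela1 and Cpb1 were between 0.964 and 1.02 times. Whether acinar RNA in no-Neurog3 cells or their own expression gives this difference was not tested.

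**Figure D5:**
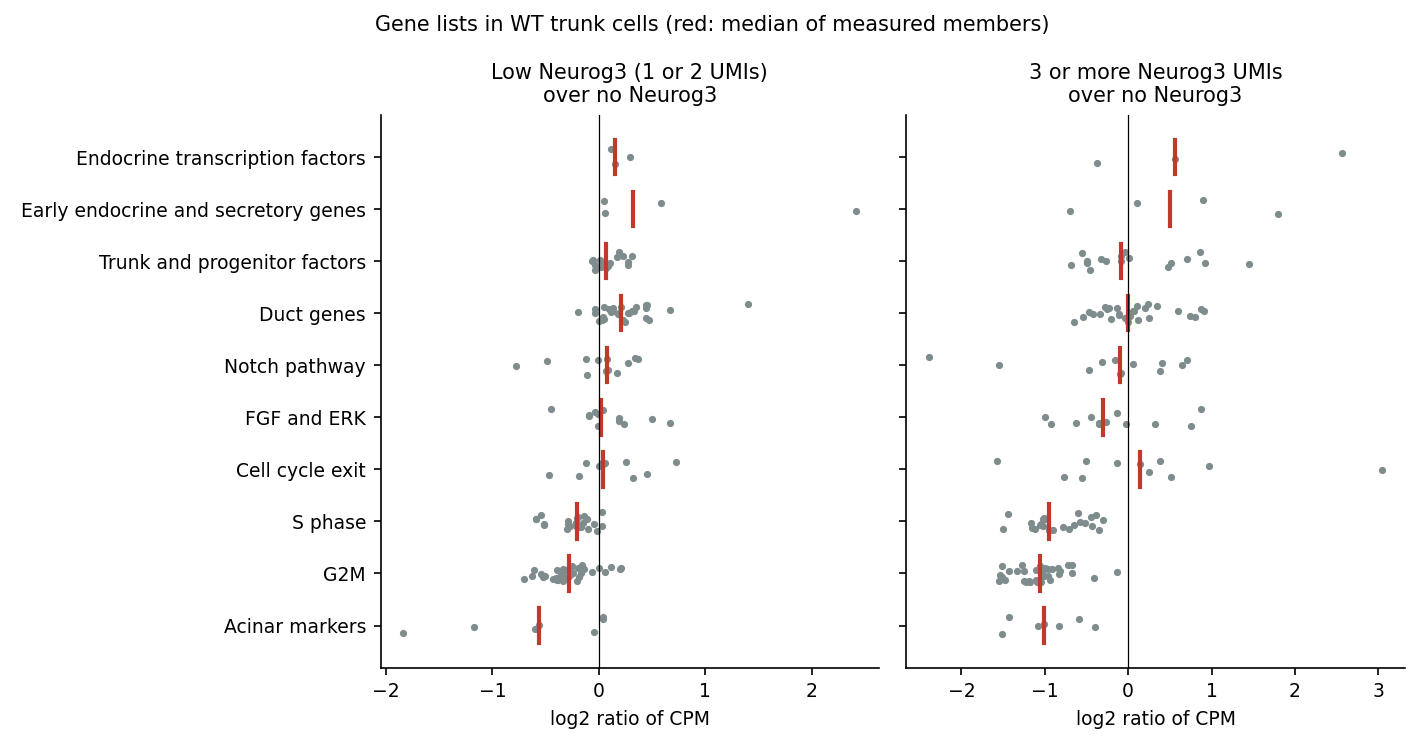
Log2 ratio of each measured member of 10 gene lists (grey points) and the list's median (red bar), for low-Neurog3 over no-Neurog3 trunk cells of WT (left) and for trunk cells with 3 or more Neurog3 UMIs over the same no-Neurog3 cells (right). With low Neurog3 the S phase, G2M and acinar medians lie below 0, at -0.20, -0.28 and -0.56, and the duct median above it, at 0.21.

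Markers of other cell types differed little for some lists and rested on a few cells for others. Summed mesenchyme markers, 12 genes without the collagens of the rule, were at 735 CPM in low-Neurog3 and 736 CPM in no-Neurog3 cells, and mesothelium markers at 382 and 393 CPM. Immune markers were at 26.0 and 65.4 CPM, with Ptprc and Fcer1g at 0 UMIs in low-Neurog3 cells, which allows up to 2.36 CPM each. Endothelial markers were at 44.1 and 25.6 CPM, and 7 of the 8 Cdh5 UMIs in low-Neurog3 cells lay in 1 cell. Erythroid markers were at 6307 and 5771 CPM, but 1 low-Neurog3 cell held 1241 of 2733 Hba-a1 and 654 of 1127 Hbb-bt UMIs, and without the richest cells these globins stood at 0.664 and 0.545 times no-Neurog3 cells. Glial markers were at 294 and 245 CPM (1.20 times, 1.07 to 1.34). Lists for Wnt, Hippo and YAP, m6A machinery and dissociation stress, of 10, 12, 14 and 20 measured genes, had 0 members past 1.5-fold, with medians between -0.06 and 0.09. Of the p53 target list 1 of 8 was higher, Cdkn1a, and of the adhesion list 1 of 19, Cxcl12.

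The 6 Mettl3pKO members hold 102832 UMIs, 35776 of them in the 1 cell with 2 Neurog3 UMIs, and allow few statements. That deepest cell held 100 of the 106 UMIs of immune markers and 68 of the 98 of mesenchyme markers in the 6 cells, all 16 of Tyrobp, an adaptor of myeloid cells, and all 7 of Dcn, a matrix proteoglycan. Levels set against WT members are therefore given with and without it, while ratios to no-Neurog3 cells of Mettl3pKO include it. Summed immune markers were at 1031 CPM in Mettl3pKO and 26.0 CPM in WT members, and at 89.5 CPM (32.8 to 195) in Mettl3pKO without it. Mesenchyme markers were at 953 and 735 CPM, and at 447 CPM without it. Acinar markers were at 1235 and 1180 CPM, and at 1417 CPM without it. Serpina6 was at 204 CPM in Mettl3pKO and 28.4 CPM in WT members, and at 298 CPM in Mettl3pKO without the deepest cell. In no-Neurog3 trunk cells acinar markers were at 3329 CPM in Mettl3pKO and 1634 CPM in WT, and Serpina6 at 968 and 103 CPM. Within Mettl3pKO, Serpina6 in the members stood at 0.211 times no-Neurog3 cells (0.131 to 0.323). All 6 cells were called cycling, as were 291 of 370 no-Neurog3 trunk cells of Mettl3pKO (78.6%).

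Some genes that were high in WT members were at a lower level in the Mettl3pKO members. Fgfr3 was at 48.6 CPM in Mettl3pKO and 194 CPM in WT members (0.251 times, 0.0807 to 0.593), and had 1 UMI without the deepest cell. Enpp2 was at 77.8 and 184 CPM (0.422 times, 0.180 to 0.845), or 0.323 times without it, and Cxcl12 at 311 and 542 CPM (0.574 times, 0.389 to 0.818), or 0.413 times. All 5 Cldn2 UMIs of Mettl3pKO lay in the deepest cell. No-Neurog3 trunk cells were lower in Mettl3pKO too. Fgfr3 was at 73.5 CPM there and 123 CPM in WT, Enpp2 at 25.5 and 94.9 CPM, and Cxcl12 at 256 and 347 CPM. Within Mettl3pKO, and with the deepest cell included, members stood at 3.05 times no-Neurog3 cells for Enpp2 (1.3 to 6.17). That ratio rests on 8 UMIs in 3 cells, and 4 UMIs remain without the deepest cell. For Cxcl12 the same ratio was 1.22 times (0.83 to 1.73) and for Fgfr3 0.662 times (0.214 to 1.56). For other genes the interval of Mettl3pKO to WT members held 1 or lay above it. Slc2a2 was at 165 and 148 CPM (1.12 times, 0.637 to 1.83), or 0.906 times (0.408 to 1.76) without the deepest cell. Kif21a stood at 0.898 times (0.504 to 1.49), or 0.516 times (0.187 to 1.14) without the deepest cell, and Cdkn1a at 1.92 times (1.18 to 2.99), or 1.41 times (0.687 to 2.59) without it.

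Of the genes of the trunk state, Hes1 was at 807 CPM in Mettl3pKO and 1306 CPM in WT members (0.618 times, 0.489 to 0.771), or 0.502 times without the deepest cell. Sox9 was at 632 and 929 CPM (0.680 times, 0.522 to 0.874), but 0.835 times (0.620 to 1.10) without it. Dlk1 was at 661 and 223 CPM (2.97 times, 2.24 to 3.88), or 1.94 times (1.27 to 2.85) without it. Insm1 had 0 UMIs in the Mettl3pKO members, against 32.3 CPM in WT members. The exact interval of that level reaches 35.9 CPM, and the interval of the ratio runs from 0 to 1.16. A lower level than in WT members was therefore not shown. What share other cells' RNA has in these values was not tested. Genotype, library and the mix of embryos cannot be told apart here.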

How the data were processed

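Each library was deposited as 1 table of UMI counts, cells in rows and genes in columns. The BD WTA Rhapsody Analysis Pipeline, version 1.8, had made these counts, per the file headers. Per the submitters' processing notes, genome build mm10 and Seurat were used, in roles not given in the sources used here. Each table ended inside its last line, and that 1 incomplete cell was dropped; shallower cells may be missing, which bears on every share. No filter on cells beyond the rule was applied.

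The members, the gene lists and the comparisons were chosen with earlier results of these data known. UMIs were summed per group and scaled to 1000000 (CPM). Levels carry exact Poisson, ratios exact conditional binomial and shares exact Clopper-Pearson 95% intervals. Log2 ratios had 0.5 UMIs added. A count of 0 was read as allowing 3 counts. Lists are described by the members with a mean of at least 50 CPM. Named genes were, among those of at least 100 CPM in either group, the 15 highest and 15 lowest by the interval bound nearest 1, without rule, mitochondrial, ribosomal, globin, sex-linked, acinar enzyme and hormone genes; then the members of each described list farthest from 1 among those with at least 20 UMIs. Other genes in the text, among them known genes of this step of development, were chosen after the data were seen. Coordinates are from GENCODE on mm10. Counts were read with Python 3.11.15, numpy 2.4.6 and scipy 1.17.1; the doublet caller was Scrublet in scanpy 1.11.5. The ratio intervals and the 1.5-fold threshold were tested on simulated sums, which held counting error but no spread between cells. The naming step was not tested. Alternatives covered cell filters, depth, thinning, doublets, sex-linked transcripts, thresholds, scaling and single rich cells, the last, the Mettl3pKO members without their deepest cell and the removal of cells with transcripts of another type being added after the data were seen.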

Additional observations from a re-analysis of the deposited data

How the results depend on the processing

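No paired analysis was possible because each genotype had 1 library. The share of low-Neurog3 cells in the trunk stayed lower in Mettl3pKO than in WT in every alternative tried, and its ratio to WT ran from 0.102 in male to 0.373 in female cells. The count of genes past 1.5-fold did depend on the settings. Against 30 higher and 19 lower genes, it was 66 and 47 in cells of 8000 to 16000 UMIs, 206 and 128 in the 39 male low-Neurog3 cells, 54 and 33 in the 54 female ones, 280 and 150 with exactly 2 Neurog3 UMIs and 128 and 53 after thinning. With a minimum of 20 CPM it was 131 and 81, with 100 CPM 8 and 6, and with none beyond 1 UMI in each group 2307 and 742. A 2-fold threshold gave 5 and 3, and leaving out the richest cell for each gene 16 and 36. The lower genes were 29 with at least 20 Spp1 UMIs per 10000, 29 without cells with Neurod1, Chga or Chgb, and 10 with 5 UMIs added. Of the 206 genes higher in the male cells 29 were among the 30, and of the 54 in the female cells 11.

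Directions turned mostly for genes with few UMIs or 1 rich cell. As log2 ratios, Car2 was at -0.38 without cells marked as doublets, -0.64 at 8000 to 16000 UMIs, -0.48 in the female cells, -1.33 with exactly 2 Neurog3 UMIs, -0.17 in cells not called cycling and -0.35 without its richest cells. Cpox was at -0.11, -0.20, -0.27, -0.041, -0.19 and -0.12 in the same settings, and at -0.053 without cells with transcripts of another type. In the female cells Hist1h1c was at -0.17, Neurod1 at -0.44, Pcsk1 at -1.38, Rb1 at -0.29, Rbp4 at -0.37 and Isl1 at -2.03. In the male cells Cftr was at -0.085 and Ptf1a at 0.83. With exactly 2 Neurog3 UMIs Pcsk1 was at -0.23 and Rb1 at -1.24, and with exactly 1 Pax4 was at -0.36. After thinning Cftr was at -0.12, Ccne1 at 0.034 and Foxa3 at 0.85. In cells not called cycling Cdca8 was at 0.24, Ube2c at 0.63 and Pax4 at -0.45. Without cells with Neurod1, Chga or Chgb, Cbfa2t3 and Ppy were at -0.31 each, Pcsk1 at -1.47 and Isl1 at -0.91, and without cells of another type's transcripts Pcsk1 was at -1.54 and Isl1 at -1.20. The cause was not tested.

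The cycling share of low-Neurog3 cells was 25.6% in the male cells, at a ratio of 0.522 to no-Neurog3 cells. Without thinning it was 49.5% in low-Neurog3 and 56.6% in no-Neurog3 cells, and with a limit of 4 UMIs it was 38.0% in no-Neurog3 cells. The S phase and G2M medians stayed below 0 in all 20 list alternatives, and the duct and trunk medians above it. The acinar median stayed below 0 in 19 of 20, and that of FGF and ERK genes kept its sign in 12 of 20. At 105 cells, genes under about 20 CPM rest on fewer than 30 UMIs in the low-Neurog3 sum, and differences there were not detectable unless large. In the 6 Mettl3pKO cells leaving out 1 cell, a choice made after seeing the data, moved several levels.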

Other observations

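Among the genes past 1.5-fold that the naming rule did not take, and that were chosen here after their values were seen, were genes of vesicle release and others. Arrdc4, an arrestin related to Txnip, was at 72.5 CPM in low-Neurog3 and 38.5 CPM in no-Neurog3 trunk cells of WT (1.88 times, 1.49 to 2.36). In cells with 3 or more Neurog3 UMIs it stood at 63.3 CPM. Rph3al and Cplx2, which act in vesicle release, and Rap1gap2 were at 70.9, 67.8 and 97.7 CPM in low-Neurog3 cells, against 37.3, 36.3 and 61.2 CPM in no-Neurog3 cells. In cells with 3 or more Neurog3 UMIs they reached 333, 244 and 371 CPM. None of these 4 genes had more than 8 UMIs in any 1 low-Neurog3 cell.

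On the lower side, Fmo1, a flavin monooxygenase, was at 38.6 CPM in low-Neurog3 and 96.6 CPM in no-Neurog3 cells (0.400 times, 0.294 to 0.532). Car9, a carbonic anhydrase known to be induced by hypoxia, was at 55.9 and 99.7 CPM (0.561 times, 0.435 to 0.713), and the keratin Krt23 at 46.5 and 74.1 CPM. All 3 were lower still with 3 or more Neurog3 UMIs, at 14.2, 30.6 and 20.04 CPM, and were lower in the male and in the female cells taken apart.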
